A study of Mus musculus with 6 samples.

Results

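Cholesterol and fatty acid metabolism was followed in the newborn mouse lens through 33 genes named for their roles: 12 enzymes of sterol synthesis, 3 regulators of sterol and fatty acid genes, 11 genes of fatty acid synthesis, elongation and desaturation, and 7 genes of mitochondrial fatty acid oxidation. Where several probe sets carried a gene's symbol and no other, the brightest by mean log2 intensity over the 6 arrays was taken. By this rule 32 of the 33 genes had a probe set and Insig1 had none, out of 12393 genes represented in all. Lenses of newborn (P0) Le-AP-2alpha conditional mutants, in which Tfap2a (named Tcfap2a in the labels), the gene of transcription factor AP-2alpha, is targeted, were compared with lenses of newborn wild-type littermates. There were 3 one-colour arrays per group and 6 in all. Strain, sex and whether a sample pools several animals are not given in the sources used here, so a p-value reflects only how far these samples vary, which may be technical. The labels do not spell out Le. As background, Le-Cre lines express Cre from a Pax6 regulatory region in the surface ectoderm that forms lens and corneal epithelium, so cells of other origin in a dissected lens would keep the gene.

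Sterol synthesis builds cholesterol from acetyl-CoA through mevalonate, squalene and lanosterol, and its genes are switched on together by SREBP transcription factors when membrane sterol is low. Fibre cell membranes of the lens are unusually rich in cholesterol, and inborn defects or drugs that block its synthesis can cause cataract. Fatty acid synthase, elongases and desaturases make the acyl chains of membrane lipids. Mitochondrial oxidation breaks such chains down after the carnitine shuttle has carried them into the organelle.

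The arrays had median log2 intensities of 5.19 to 5.32 and highest values of 13.90 to 13.97. A probe set with a mean under the median of all probe set means, 5.26, is called dim here, and of the 32 genes only Acaca was. Wild-type replicate 1 stood apart. Its Pearson correlations over probe sets, a description, ran from 0.926 to 0.945, while the other 5 arrays correlated at 0.974 to 0.985 among themselves, so results are also given without it. The 7 measured of 10 lens markers had summed intensities of 58913 to 64912 in mutants, against 65860 to 74051 in wild types, and none was dim. Of the 7, 6 had a lower and 1 a higher mean log2 in mutants. Cryaa, Cryba1 and Crybb3, with means of 13.70, 13.94 and 13.66, lay near the highest values, where differences can be compressed. Their log2 differences, mutant minus wild type, were -0.05, -0.02 and -0.07. In bulk lens RNA, fewer cells of a type and less RNA per cell cannot be told apart.

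No sterol, fatty acid or oxidation gene passed the test. limma called 0 of the 32 genes at an adjusted p under 0.05, against a background of 0% of 12393 genes, with adjusted p of 0.885 to 0.999 over all 22626 probe sets. At an unadjusted p under 0.05 there were 2 members, beside 3.85% of all genes. Scd1 had a higher value in mutants, as had 2.13% of all genes at that p, and Cpt1a a lower one, as had 1.72%. The groups did not overlap for 4 members, 12.5% of the 32, beside 8.8% of all genes. For Scd1 every mutant lay above every wild type, as for 4.22% of all genes, and for Mvk, Cpt1a and Acadm every mutant lay below, as for 4.58%.

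The median log2 difference, mutant minus wild type, was -0.07 over the 12 sterol synthesis enzymes, with 4 higher and 8 lower in mutants. It was 0.01 over the 11 fatty acid synthesis and desaturation genes, with 6 higher and 5 lower. Over the 7 mitochondrial oxidation genes it was -0.42, with all 7 lower, beside a median of -0.01 over all genes, of which 47.8% were higher and 52.2% lower. Without wild-type replicate 1 the medians were 0.11, 0.29 and -0.14, and 3 of 12, 1 of 11 and 5 of 7 genes were lower. The differences between the gene groups were not tested.

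**Figure D1:**
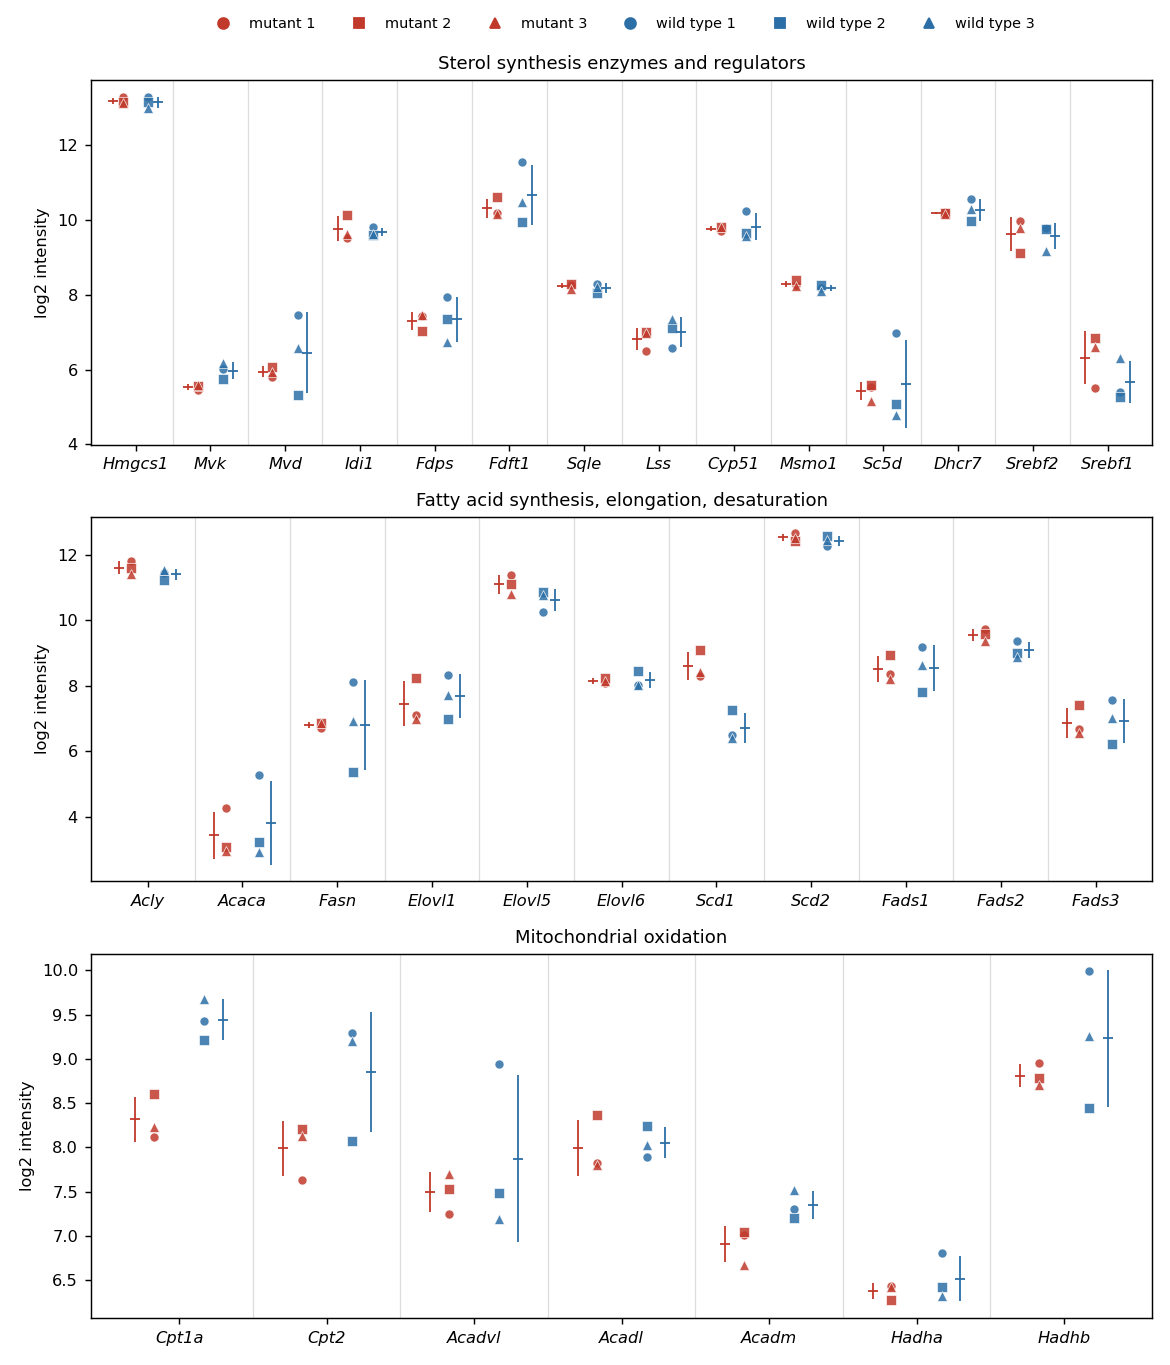
Log2 intensity of the 32 measured genes on each array (vertical axes, a log2 scale that does not start at 0), with mutants in red left of wild types in blue; crosses with bars are mean and SD (n = 3). Scd1 lies between 8.29 and 9.11 in mutants and between 6.39 and 7.25 in wild types, and Cpt1a between 8.12 and 8.61 in mutants and between 9.22 and 9.68 in wild types.

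No sterol synthesis enzyme passed the test, and for 11 of the 12 the groups overlapped. Hmgcs1, the cytosolic HMG-CoA synthase that feeds the mevalonate pathway, had log2 intensities of 13.27, 13.16 and 13.12 in mutants, against 13.28, 13.14 and 12.99 in wild types. All 6 values lay within 1 log2 unit of the highest value on the arrays, where differences can be compressed. Its difference was 0.04 ± 0.18 (SE of the fit), and its other 3 probe sets differed by 0.19 ± 0.18, 0.22 ± 0.18 and 0.93 ± 0.81. On the last of these wild-type replicate 1 was at 7.18, against 9.16 and 10.36 in the other wild types, while on the reported probe set it was the highest array.

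Mvk, mevalonate kinase, was the sterol enzyme whose groups did not overlap. It was at 5.45, 5.57 and 5.60 in mutants, against 6.02, 5.74 and 6.16 in wild types. The difference was -0.44 ± 0.19, with an unadjusted p of 0.0566 and a limma adjusted p of 0.999. A second probe set differed by -0.22 ± 0.25 and its groups overlapped. Of the 12 enzymes 1 had groups apart in this way, 8.33% beside the 8.8% of all genes.

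Msmo1 and Sqle had tight values across the 6 arrays. Msmo1, the methylsterol monooxygenase of demethylation, was at 8.25, 8.38 and 8.23 in mutants, against 8.19, 8.26 and 8.09 in wild types. Sqle, squalene epoxidase, which adds oxygen to squalene, was at 8.27, 8.29 and 8.16 in mutants, against 8.27, 8.04 and 8.22 in wild types. Both sets of values overlapped, with differences of 0.11 ± 0.17 for Msmo1 and 0.07 ± 0.17 for Sqle. Dhcr7, which catalyses the last step to cholesterol, averaged 10.18 ± 0.02 in mutants, against 10.26 ± 0.29 in wild types (SD, n = 3 each). Idi1, the isopentenyl diphosphate isomerase, averaged 9.76 ± 0.33 in mutants, against 9.68 ± 0.11 in wild types. A second Idi1 probe set, not dim, differed by 0.24 ± 0.49 (SE), with wild-type replicate 1 at 7.63 against 9.43 and 9.24 in the other wild types.

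Others spread most on wild-type replicate 1. Mvd, the mevalonate diphosphate decarboxylase, was at 5.80, 6.08 and 5.94 in mutants, against 7.46, 5.31 and 6.58 in wild types. Sc5d, a sterol desaturase late in the pathway, was at 5.52, 5.59 and 5.15 in mutants, against 6.96, 5.09 and 4.79 in wild types. Fdft1, squalene synthase, was at 10.17, 10.60 and 10.15 in mutants, against 11.53, 9.95 and 10.48 in wild types. In each of these wild-type replicate 1 was the highest of the 6 arrays, and the mutant values fell inside the wild-type range. Without it the differences were -0.003 ± 0.38 for Mvd, 0.48 ± 0.23 for Sc5d and 0.09 ± 0.26 for Fdft1, against -0.51 ± 0.52, -0.19 ± 0.57 and -0.35 ± 0.41 with all arrays. A second, dim Sc5d probe set differed by -0.47 ± 0.22 on all arrays, with every mutant below every wild type. The farnesyl diphosphate synthase Fdps differed by -0.05 ± 0.33, the lanosterol demethylase Cyp51 by -0.05 ± 0.23, and the lanosterol synthase Lss by -0.19 ± 0.27. The other Cyp51 probe sets, neither of them dim, differed by -0.59 ± 0.39 and -0.37 ± 0.26, and the mean over its probe sets by -0.34 ± 0.20.

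Wild-type replicate 1 was the highest array for 16 of the 32 genes, 50%, and for 33% of all genes. For no member was mutant replicate 3 the highest, beside 15.2% of all genes. The mean log2 level of the 12 sterol enzymes was 8.34, 8.48 and 8.36 in mutants, against 8.90, 8.27 and 8.41 in wild types, so that wild-type replicate 1 alone lay outside the mutant range by more than 0.1. What sets this array apart was not tested. On control probe sets for Gapdh its 3' to 5' difference was 1.07, inside the 0.73 to 1.39 of the other 5 arrays.

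**Figure D2:**
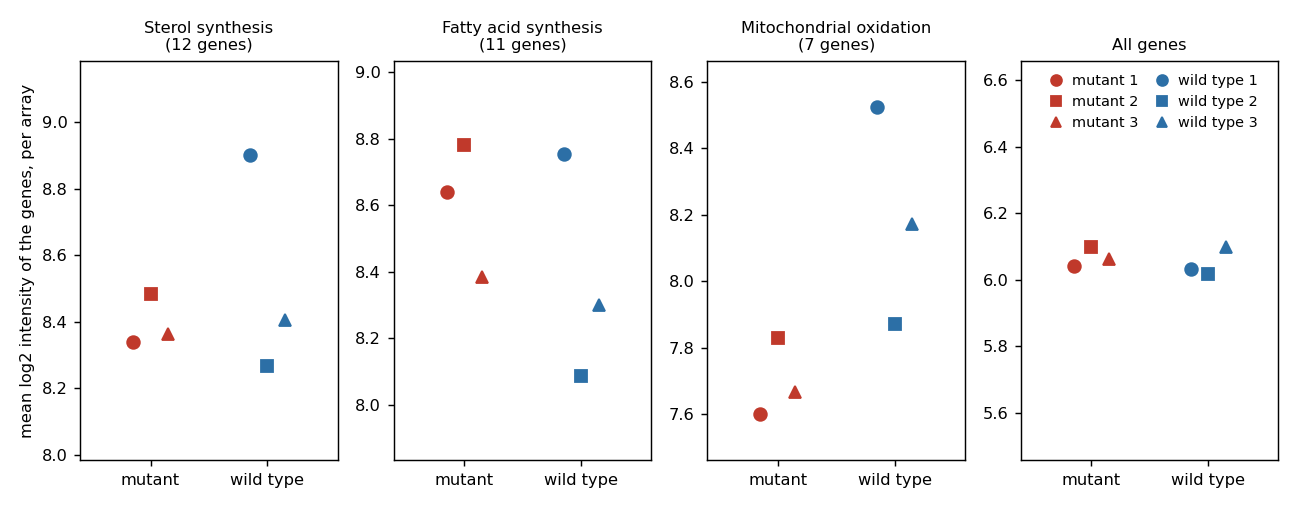
Mean log2 intensity of the genes of each group on each array, and of all 12393 genes, with mutants left of wild types; vertical axes span the same 1.2 log2 units and do not start at 0. Wild-type replicate 1 (blue circle) is highest for sterol synthesis at 8.90 and for mitochondrial oxidation at 8.52, and for the oxidation genes the mutants at 7.60 to 7.83 lie below the wild types at 7.87 to 8.52.

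The sequence before the gene starts was examined for what the enzymes share apart from their role. RefSeq's promoter table (GRCm38.p6) held 27 of the 33 genes; Fdps, Fdft1, Sqle, Scd1, Scd2 and Fads1 were not matched. In the 250 bases before each start, on both strands and over every start a gene has in the table, 9 of 9 matched sterol synthesis enzymes held CCAAT, the box bound by NF-Y, a cofactor of SREBP. So did 3 of 3 regulators, 4 of 8 fatty acid synthesis genes and 1 of 7 oxidation genes, beside 39.8% of 9888 array genes in the table and 37.5% of all 27025 genes in it. A sterol regulatory element written TCACNCCAC was found before Hmgcs1 alone among the members, beside 1.29% of the array genes. The AP-2 consensus GCCNNNGGC, which reads the same on both strands, stood before 10 of the 27 members, 37%, beside 21.9% of the array genes. The members' stretches were richer in G and C, with a median of 62.8% beside 58.4% for the array genes, and the part of base composition in these shares was not tested. A match is a string of letters and does not show binding.

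The stretches of Hmgcs1 and Mvk are given because they hold the sterol element and the most CCAAT boxes, and capitals mark CCAAT on either strand (also read ATTGG), TCACNCCAC and GCCNNNGGC. The Hmgcs1 stretch is chr13:119690101-119690350 on the plus strand, with the sterol element beginning at position -137, counted back from -1 at the base before the start, and 1 of its 3 CCAAT boxes lying within the AP-2 match. The Mvk stretch is chr5:114444019-114444268 on the plus strand, with 5 CCAAT boxes, 1 of which overlaps the AP-2 match by its last base.
Hmgcs1: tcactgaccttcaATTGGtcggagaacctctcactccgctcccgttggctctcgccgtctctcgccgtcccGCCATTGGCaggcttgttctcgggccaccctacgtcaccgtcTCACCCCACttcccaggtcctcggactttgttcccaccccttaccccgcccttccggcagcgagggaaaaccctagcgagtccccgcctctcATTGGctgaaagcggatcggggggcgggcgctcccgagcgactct
Mvk: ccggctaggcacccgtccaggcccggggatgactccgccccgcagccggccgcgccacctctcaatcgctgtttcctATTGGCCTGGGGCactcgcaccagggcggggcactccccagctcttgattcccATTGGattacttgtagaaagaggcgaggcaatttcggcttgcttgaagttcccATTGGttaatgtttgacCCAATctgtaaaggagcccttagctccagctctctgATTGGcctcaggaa

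The regulators were measured with wide spread. Srebf2, the SREBP that acts mainly on sterol genes, was at 9.98, 9.10 and 9.78 in mutants, against 9.77, 9.75 and 9.17 in wild types. Srebf1, whose product acts mainly on fatty acid genes, was at 5.52, 6.83 and 6.61 in mutants, against 5.40, 5.28 and 6.32 in wild types. Values of both genes overlapped between the groups, with differences of 0.06 ± 0.30 for Srebf2 and 0.66 ± 0.44 for Srebf1, and a second Srebf2 probe set differed by 0.69 ± 0.42.

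Among fatty acid synthesis genes the desaturase Scd1 had the largest difference. Scd1, a stearoyl-CoA desaturase that makes monounsaturated fatty acids, was at 8.29, 9.11 and 8.44 in mutants, against 6.48, 7.25 and 6.39 in wild types. Every mutant array lay above every wild-type array, and the gap between the groups was wider than 1 log2 unit. The mean was 3.74-fold higher in mutants, a log2 difference of 1.90 ± 0.33, with an unadjusted p of 0.000869 and a limma adjusted p of 0.885. Without wild-type replicate 1 the difference was 1.79 ± 0.36. A second Scd1 probe set was dim on all arrays, at 2.49 to 2.59 in mutants and 2.42 to 2.60 in wild types, and the mean over both probe sets differed by 0.97 ± 0.22.

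Scd2, a second stearoyl-CoA desaturase that lies near Scd1 on chromosome 19 with 1 protein-coding gene between them, had overlapping values. It was at 12.66, 12.44 and 12.51 in mutants, against 12.27, 12.56 and 12.45 in wild types, and the groups overlapped. The difference was 0.10 ± 0.18, and its other probe sets differed by 0.16 ± 0.30 and -0.08 ± 0.64. A test of Scd1 against Scd2 was not run.

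Markers of some cells outside the lens differed between the same arrays. The 12 macrophage markers, all measured and 5 of them dim, had summed intensities of 722, 3044 and 906 in mutant replicates 1, 2 and 3. Wild types lay at 664 to 719, close to mutant replicate 1. Of the 12, 11 had a higher and 1 a lower mean log2 in mutants. Mutant replicate 2 was the highest array both for this sum and for Scd1. The 12 measured of 14 retina and neuron markers, 3 of them dim, had sums of 2958 to 3994 in mutants, against 588 to 2388 in wild types. The 588 was wild-type replicate 1, with the other wild types at 1940 and 2388. Without that array the median log2 difference of these markers was 0.54, against 1.14 with all arrays. The 6 measured of 7 pigment cell markers, 3 of them dim, had sums of 604 to 794 in mutants, against 362 to 528 in wild types. Of the 6, 4 had a higher and 2 a lower mean log2 in mutants. One of the lower ones, the dim Rpe65, differed by -0.43 ± 0.19 with every mutant below every wild type. The 5 measured of 7 fat cell markers were all dim, with sums of 31.1 to 38.1 in mutants and 37.6 to 46.8 in wild types. Stroma marker sums overlapped, at 977 to 1464 in mutants and 805 to 1511 in wild types. Endothelium sums, at 1175 to 1726 and 1232 to 1970 in the same order, also overlapped. So did corneal and skin epithelium sums (138 to 160, 129 to 174) and red blood cell sums (30.3 to 335, 27.6 to 196). Of 11 listed stroma markers 10 were measured, 3 of them dim, and of 7 endothelium markers, all measured, 2 were dim. Of 7 corneal and skin epithelium markers 6 were dim, and all 4 measured of 6 red blood cell markers were. The part of all these markers in the Scd1 difference was not tested. Without mutant replicate 2 the Scd1 difference was 1.66 ± 0.33.

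Of the front desaturases of polyunsaturated fatty acids, Fads2 had higher values in mutants. It was at 9.72, 9.58 and 9.35 in mutants, against 9.36, 8.997 and 8.89 in wild types, and the lowest mutant lay just below the highest wild type. The difference was 0.47 ± 0.21, with a limma adjusted p of 0.999, and a second, dim probe set differed by -0.40 ± 0.31. Its neighbours on chromosome 19, Fads1 and Fads3, differed by -0.04 ± 0.40 and -0.07 ± 0.40.

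Elongases lengthen fatty acids at the endoplasmic reticulum. Elovl5, which acts on polyunsaturated chains, was at 11.38, 11.11 and 10.81 in mutants, against 10.25, 10.85 and 10.76 in wild types. Only mutant replicate 3 reached the wild-type range, and the difference was 0.48 ± 0.25. On its second probe set, which differed by 0.84 ± 0.45, every mutant was higher, with wild-type replicate 1 at 9.14 against 10.69 and 10.81 in the other wild types. Elovl6, which extends saturated chains, differed by -0.02 ± 0.20 on the reported and by -0.94 ± 0.46 on its other probe set. Elovl1, an elongase of very long chains, differed by -0.24 ± 0.46, or 0.08 ± 0.44 without wild-type replicate 1. Its other probe sets differed by -0.38 ± 0.47 and -0.62 ± 0.32 on all arrays. The latter was dim, with every mutant below every wild type.

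The enzymes that make the saturated chain showed no common direction. Acly, which supplies cytosolic acetyl-CoA from citrate, was at 11.81, 11.59 and 11.42 in mutants, against 11.43, 11.23 and 11.55 in wild types, a difference of 0.20 ± 0.19. On a second Acly probe set wild-type replicate 1 was at 7.41, while the other 5 arrays lay between 9.72 and 10.09. Fasn, fatty acid synthase, was at 6.71, 6.86 and 6.86 in mutants, against 8.12, 5.35 and 6.93 in wild types. The mutant values lay close together inside a wild-type range of more than 2 log2 units, and the difference was 0.01 ± 0.65, or 0.67 ± 0.44 without wild-type replicate 1. Acaca, acetyl-CoA carboxylase, was dim and differed by -0.38 ± 0.68.

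**Figure D3:**
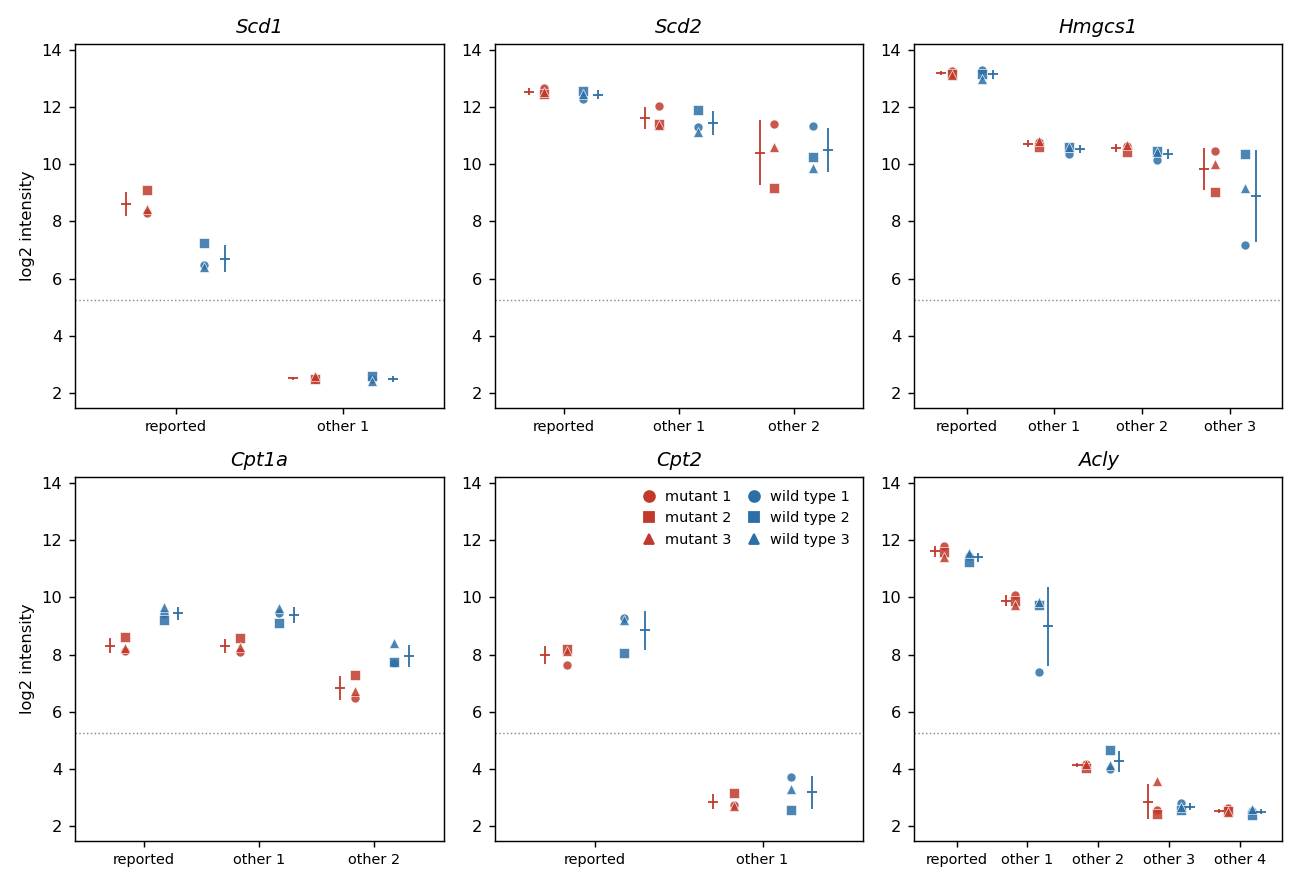
Log2 intensity on each array for every probe set of Scd1, Scd2, Hmgcs1, Cpt1a, Cpt2 and Acly, brightest (reported) first, with mutants left of wild types, mean and SD as crosses with bars (n = 3), and a dotted line at 5.26, below which a probe set is called dim. All 3 Cpt1a probe sets have every mutant below every wild type, the second Scd1 probe set is dim, and wild-type replicate 1 (blue circle) lies far below the other arrays on other probe sets of Hmgcs1 at 7.18 and of Acly at 7.41.

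All 7 genes of mitochondrial fatty acid oxidation had a lower mean in mutants. Cpt1a, which forms acylcarnitines at the outer mitochondrial membrane and is a rate-controlling step of the pathway, was at 8.12, 8.61 and 8.23 in mutants, against 9.43, 9.22 and 9.68 in wild types. Each mutant array lay below each wild-type array. The mean was 2.18-fold lower in mutants, a log2 difference of -1.12 ± 0.22, with an unadjusted p of 0.00183 and a limma adjusted p of 0.928. The other Cpt1a probe sets, neither of them dim, differed by -1.09 ± 0.23 and -1.12 ± 0.30, and their groups did not overlap either. The former lay close to the reported values, at 8.08, 8.58 and 8.25 in mutants, against 9.45, 9.09 and 9.64 in wild types. Whether these probe sets are independent measures was not tested. Without wild-type replicate 1 the difference was -1.13 ± 0.25.

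Cpt2, which returns the acyl group to CoA on the inner membrane, was at 7.63, 8.21 and 8.13 in mutants, against 9.29, 8.07 and 9.20 in wild types. Wild-type replicate 2 lay among the mutants and the other wild types above all of them. The difference was -0.87 ± 0.37, with a limma adjusted p of 0.999. A dim second probe set differed by -0.33 ± 0.33.

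The acyl-CoA dehydrogenases, which open each round of oxidation for chains of different length, did not all follow. Acadm, which acts on medium chains, was at 7.01, 7.04 and 6.68 in mutants, against 7.31, 7.21 and 7.52 in wild types. Its groups did not overlap, and the difference was -0.44 ± 0.20, with a limma adjusted p of 0.999. Acadvl, for very long chains, was at 7.25, 7.53 and 7.71 in mutants, against 8.94, 7.49 and 7.19 in wild types. Wild-type replicate 1 lay more than 1 log2 unit above the other 5 arrays, with a difference of -0.38 ± 0.46 on all arrays and 0.16 ± 0.22 without it. Acadl, for long chains, differed by -0.06 ± 0.23.

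Hadha and Hadhb encode the subunits of the trifunctional protein, which carries out the later steps for long chains. Hadha was at 6.43, 6.27 and 6.43 in mutants, against 6.81, 6.43 and 6.32 in wild types. Hadhb was at 8.95, 8.78 and 8.71 in mutants, against 9.99, 8.44 and 9.26 in wild types. For both genes wild-type replicate 1 was the highest array and the groups overlapped. The differences were -0.14 ± 0.20 for Hadha and -0.42 ± 0.39 for Hadhb with all arrays, and 0.00 ± 0.18 and -0.04 ± 0.28 without it. A second Hadhb probe set differed by 0.01 ± 0.26.

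The groups did not overlap for 2 of the 7 oxidation genes, Cpt1a and Acadm, both lower, beside 4.58% of all genes. The mean log2 level of the 7 genes was 7.60, 7.83 and 7.67 in mutants, against 8.52, 7.87 and 8.17 in wild types. The gap between mutant replicate 2 and wild-type replicate 2 was smaller than the spread within either group. Lens marker sums were also lower in every mutant and retina and neuron and pigment cell marker sums higher, with the ranges given above, and their part in the oxidation values was not tested.

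Promoter stretches of the oxidation genes are given for Cpt1a, the member with the most negative difference, and for Hadha, which shares its upstream region with Hadhb. Hadha and Hadhb are transcribed away from each other on chromosome 5, with 272 bases between their starts in the RefSeq table. Of the 7 genes, Cpt1a and Hadha held the AP-2 consensus GCCNNNGGC, Cpt1a held a CCAAT box, and none held TCACNCCAC or a PPAR response element of 2 consensus half-sites, which 0.0405% of the array genes held. The half-site alone, AGGTCA on either strand, was found before 3 of the 7, Cpt1a, Acadm and Acadvl, and before 9 of the 27 members, 33.3%, beside 14.1% of the array genes. In Cpt1a it begins at position -94 and is left in lower case. Capitals mark GCCNNNGGC and CCAAT. The Cpt1a stretch is chr19:3323051-3323300 on the plus strand, with the AP-2 match beginning at position -133. The Hadha stretch is chr5:30154981-30155230 on the minus strand, with the match beginning at position -22.
Cpt1a: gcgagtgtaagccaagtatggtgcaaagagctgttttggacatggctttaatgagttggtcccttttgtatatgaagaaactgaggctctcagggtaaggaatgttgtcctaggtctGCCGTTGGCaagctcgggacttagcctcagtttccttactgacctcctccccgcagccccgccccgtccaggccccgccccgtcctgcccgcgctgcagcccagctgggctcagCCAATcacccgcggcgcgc
Hadha: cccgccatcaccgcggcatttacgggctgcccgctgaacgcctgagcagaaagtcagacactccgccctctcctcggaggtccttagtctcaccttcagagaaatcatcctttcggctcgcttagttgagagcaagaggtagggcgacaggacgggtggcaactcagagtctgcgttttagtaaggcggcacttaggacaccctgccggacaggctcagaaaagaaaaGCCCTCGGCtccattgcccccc

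AP-2 matches were found before members with a higher and members with a lower mean in mutants, none of them called. Cpt1a and Hadha, given above, differed by -1.12 ± 0.22 and -0.14 ± 0.20. The other members that held one were Mvk, Idi1, Hmgcs1, Srebf1, Srebf2, Acly, Fasn and Fads3. The differences of these others ran from -0.44 ± 0.19 for Mvk to 0.66 ± 0.44 for Srebf1. Those of Idi1 and Hmgcs1 were 0.09 ± 0.22 and 0.04 ± 0.18. Whether a match goes with a difference was not tested. In Idi1, as in Hmgcs1, the match overlaps a CCAAT box.

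**Figure D4:**
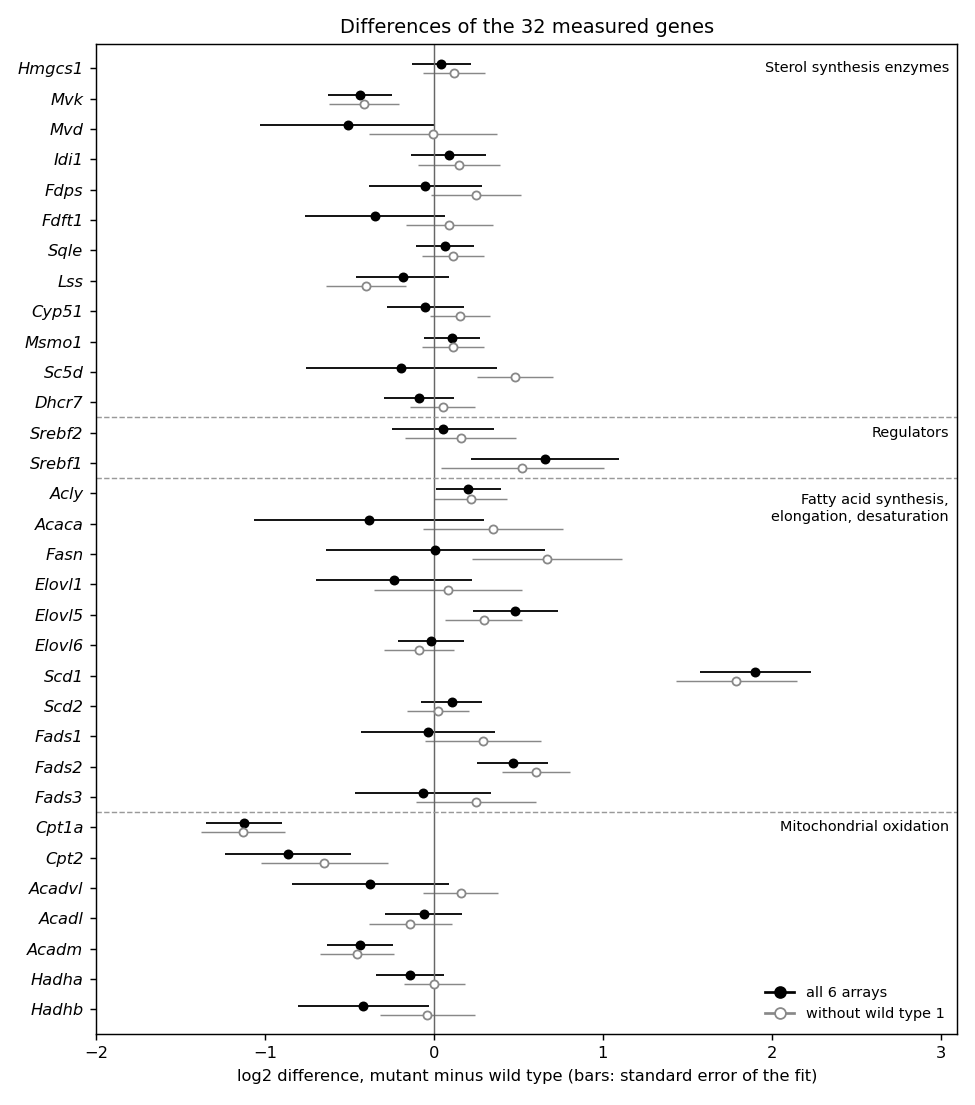
Log2 difference, mutant minus wild type, of the 32 measured genes (horizontal axis; bars are the standard error of the fit), with all 6 arrays in black and without wild-type replicate 1 in grey, ordered by role. Scd1 at 1.90 and Cpt1a at -1.12 stand farthest from 0 in either fit, and several differences, such as those of Sc5d (-0.19 and 0.48) and Acadvl (-0.38 and 0.16), change sign without that array.

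Other genes of the same pathways were described from lists that are not members. Of sterol synthesis, 6 of 9 listed genes were measured, with a median difference of -0.08, 3 higher and 3 lower, and 0 called. Those of lowest p were Nsdhl, a sterol dehydrogenase of demethylation, at 0.22 ± 0.18, and Hsd17b7, which reduces the ketone left by that step, at 0.46 ± 0.47 and dim. Without wild-type replicate 1 the median was 0.06 and Hsd17b7 differed by -0.02 ± 0.32.

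Of 18 listed genes of sterol uptake, efflux and sensing, 13 were measured, 11 with a higher and 2 with a lower value in mutants, a median of 0.11 and 0 called. With single arrays left out this ran between 8 higher and 5 lower, with a median of 0.05, without wild-type replicate 2, and 13 higher and 0 lower, with a median of 0.22, without wild-type replicate 1. Lpl, the lipoprotein lipase that frees fatty acids from circulating particles, was at 7.61, 7.20 and 8.44 in mutants, against 6.60, 5.87 and 6.10 in wild types. Every mutant lay above every wild type, as for 4.22% of all genes. The difference was 1.56 ± 0.37, with an unadjusted p of 0.00443 and a limma adjusted p of 0.999. A second, dim Lpl probe set differed by 0.37 ± 0.29 and its groups overlapped. Mylip, a ubiquitin ligase that degrades the LDL receptor, was dim, with a difference of 0.95 ± 0.37, or 0.54 ± 0.18 without wild-type replicate 1. The sterol exporters Abca1 and Abcg1, named after their values were seen, differed by 0.79 ± 0.40 and 0.83 ± 0.53, the value of Abcg1 being 0.34 ± 0.42 once wild-type replicate 1 was left out. Macrophages also express Lpl, Abca1 and Abcg1. The macrophage marker sum was 722, 3044 and 906 in mutant replicates 1, 2 and 3. Lpl, Abca1 and Abcg1 were all highest on mutant replicate 3, and among mutants Lpl and Abcg1 were lowest on mutant replicate 2, at 7.20 and 7.06. The part of the higher macrophage markers in these values was not tested.

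The wider oxidation list had a median nearer 0 than the 7 members. Of 23 listed genes of mitochondrial oxidation and its regulators, 19 were measured, 8 higher and 11 lower in mutants, with a median of -0.10 and 0 called. Leaving out wild-type replicate 1 gave 10 higher, 9 lower and a median of 0.04. Angptl4, a secreted inhibitor of lipoprotein lipase that PPAR receptors induce, was dim, at 4.17, 4.55 and 4.26 in mutants, against 6.20, 5.36 and 5.23 in wild types. Every mutant lay below every wild type, as for 4.58% of all genes. The difference was -1.27 ± 0.30, with an unadjusted p of 0.00444 and a limma adjusted p of 0.999. A second, dim Angptl4 probe set differed by -0.28 ± 0.25 and its groups overlapped. Ppargc1a, a coactivator of mitochondrial genes, differed by 1.22 ± 0.58, or 0.57 ± 0.29 once wild-type replicate 1 was left out. The carnitine carrier Slc25a20, which works between Cpt1a and Cpt2 and was chosen after its values were seen, differed by -0.22 ± 0.20, or -0.10 ± 0.20 once that array was left out.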

How the data were processed

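RNA from newborn lenses was labelled with biotin after Nugen Ovation amplification, per the labels' protocols, and hybridised to 1 array per sample. The authors deposited linear intensities for 22690 probe sets; RMA is named per the submitters' processing notes, without version or settings, and it can shrink differences where signal is dim. Deposited values were turned into log2 with no pseudocount. After leaving out 64 array controls, 22626 probe sets were fitted with limma 3.58.1 (lmFit, eBayes; R 4.3.3), mutant against wild type without covariate, two-sided, with Benjamini-Hochberg adjustment over all of them and a threshold of 0.05. Names came from the platform annotation of 2016: 20380 probe sets had 1 symbol, 691 several and 1555 none, and all 32 members matched a RefSeq gene by Entrez ID. Non-members were named as the 2 genes of lowest p per list. The fit was tested on simulated data. Members and lists were chosen with earlier results of these data known, so no list was tested as a set. Levels are mean ± SD, differences carry the fit's SE. No column was left out (0), and at most 0.186% of values were equal between arrays.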

Additional observations from a re-analysis of the deposited data

How the results depend on the processing

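Under all 15 alternatives, 0 of the 32 members were called, with the lowest adjusted p, 0.0759 for Scd1 and 0.0982 for Cpt1a, under array weights, where wild-type replicate 1 weighed 0.224 and wild-type replicate 3 5.65 and where 5 of all probe sets were called, against 0 under the other refits. The difference of Scd1 ran from 0.97 (mean of its probe sets) to 2.17 and that of Cpt1a from -1.32 to -1.005. The median of the sterol enzymes, -0.07, was 0.084 with array weights, 0.059 when both the first wild-type and the second mutant array were dropped, and ran from -0.14 to 0.11 with each array left out in turn. The median of the fatty acid synthesis genes ran from -0.02 to 0.29 and that of the oxidation genes from -0.57 to -0.14 in the same way. For each of the 3 medians the highest value came without wild-type replicate 1. The cause was not tested. With the replicate number as a block 0 members were called; in this balanced design the block cannot move a difference, so the medians of -0.07, 0.01 and -0.42 are the same by construction. Same-numbered samples did not deviate together (correlations of -0.07, -0.26 and -0.16), so the numbers were not taken as pairs. Some differently numbered samples did, with 0.30 for mutant replicate 2 and wild-type replicate 3, and 0.21 for mutant replicate 1 and wild-type replicate 2. What such samples share was not tested, and the fit does not model it. Dim signal limits Acaca, Angptl4, Mylip, Hsd17b7, the second probe sets of Scd1, Cpt2, Fads2, Sc5d, Lpl and Angptl4, and a further probe set of Elovl1.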

Other observations

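Lipid genes outside the groups above also had no call. Of 28 listed genes of fatty acid synthesis and activation, 25 were measured, 11 higher and 14 lower in mutants, with a median log2 difference of -0.02, or 0.07 without wild-type replicate 1. Dgat2, which makes triglycerides from diglycerides, was at 6.52, 6.45 and 6.33 in mutants, against 7.21, 6.87 and 7.52 in wild types. The difference was -0.77 ± 0.22 (SE) with a limma adjusted p of 0.999. Every mutant lay below every wild type, as for 4.58% of all genes. Acsl6, an acyl-CoA synthetase abundant in brain, was dim and differed by 1.20 ± 0.46, or 0.74 ± 0.33 without wild-type replicate 1. Of 10 peroxisomal genes 8 were measured, 3 higher and 5 lower, with a median of -0.02, or -0.12 without that array. Cat, catalase, was at 9.96, 9.83 and 9.82 in mutants, against 10.42, 10.07 and 10.57 in wild types, a difference of -0.49 ± 0.20 with a limma adjusted p of 0.999, and Acaa1a, a peroxisomal thiolase, differed by -0.52 ± 0.53, or -0.29 ± 0.56 without wild-type replicate 1.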
